A study of Homo sapiens with 8 samples.

Results

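The 50 genes examined here encode the machinery of G2 and mitosis: mitotic cyclins and CDC25 phosphatases, spindle checkpoint proteins, mitotic kinases, kinetochore and centromere proteins, kinesins, spindle assembly and cytokinesis factors, condensin subunits and the transcription factor FOXM1. They were chosen by symbol, from what they are known to do but with earlier results of these data known. Every array probe whose RefSeq accession belongs to one of them was taken. Of the 50 genes, 49 had a probe. PLK1, a mitotic kinase, had none that could be joined by accession. Condensin subunit NCAPH had 1 probe, which passed the background criterion on 0 of 8 arrays and was not tested. The remaining 48 genes had 56 tested probes, out of 12125 genes and 18761 probes tested in the series. All 48 probes that stand for a gene were well above background on 8 of 8 arrays.

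Cells entering mitosis depend on mRNAs that are transcribed in a wave late in S phase and G2. Cyclin A and cyclin B proteins bind CDK1 and switch on the phosphorylation that condenses chromosomes and builds the spindle, and the spindle checkpoint holds back the anaphase-promoting complex until every kinetochore is attached. Many of these genes share promoter elements, among them the cell cycle genes homology region (CHR), read by the DREAM complex in resting cells and by the MYB-MuvB complex with FOXM1 in G2, and CCAAT boxes, bound by NF-Y. Proliferating carcinoma cells express the set at high level, and MKI67 and TOP2A are used as proliferation markers in pathology.

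KYSE850 cells, a human line established from esophageal squamous cell carcinoma, had their mRNA measured on one-colour Agilent arrays. There were 4 arrays of cells treated with control siRNA and 4 of cells treated with siRNA that silences KHSRP. The protein made from KHSRP binds RNA and takes part in mRNA decay, splicing and miRNA maturation. The KHSRP siRNA group is a transient knockdown in a single cell line. The labels give no dose or time of treatment and do not say which of the siRNAs went onto which array or whether the replicates were separate cultures, so p-values measure only the spread between these samples, which may be technical. Levels are log2 signals relative to the 75th percentile of the array, so that 0 is the signal at that percentile, and a probe was called when its adjusted p in limma was under 0.05 after Benjamini-Hochberg adjustment over all tested probes.

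The knockdown was present on every array, with KHSRP at 6.08 ± 0.24 (SD, n = 4) in control cells and 2.71 ± 0.19 (SD, n = 4) after KHSRP siRNA, which is 9.66% of control. All 8 squamous markers were tested and detected on 8 of 8 arrays, while 1 of 5 fibroblast markers (COL1A1), 1 of 4 leukocyte markers (CD14) and 0 of 3 endothelial markers passed the filter. The squamous markers split the arrays inside both groups: KRT5, a basal keratin, had levels of 5.84, 4.30, 5.84 and 3.11 on control arrays 1 to 4 and of 5.92, 4.46, 2.92 and 5.98 on KHSRP siRNA arrays 1 to 4. All 8 squamous markers were higher on control arrays 1 and 3 and KHSRP siRNA arrays 1 and 4 than on the other arrays of the same group, and 0 of 8 were called between the groups without a block. In the deposited series matrix, the columns numbered 3 and 4 of the KHSRP siRNA group hold the scanner values of each other, so that in the numbering of the matrix the high arrays are those numbered 1 and 3 in both groups. With these matrix numbers as a block in the fit, the desmosomal cadherin DSG3 was called lower (log2 fold change -0.74, adjusted p = 0.00432) and DSC3, another of them, higher (log2 fold change 0.48, adjusted p = 0.0155). Arrays are numbered below as in the scanner files unless the matrix is named.

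The mitotic mRNAs were lower after KHSRP siRNA as a group. Of the 48 tested genes, 28 were called lower and 0 higher, beside 3.62% of all tested probes called lower and 1.92% called higher. Of the 28, 26 were over 1.5-fold lower, which 3.12% of all probes were with a call. The median log2 fold change of the 48 genes was -0.73, beside 0.01 over all tested probes, and 47 of 48 were lower in value, beside 48.2% of all probes. The exception was SPC24, whose value of 0.07 turned to -0.0029 when arrays were scaled to their median. The lowest control array lay above the highest KHSRP siRNA array for 38 of 48 genes, beside 8.69% of all probes, and 10 genes were more than 2-fold lower in value. In order of all 12125 tested genes from the lowest change, 29 of the 48 lay in the lowest 5%. These RNA levels come from whole cultures, in which fewer cells in G2 and mitosis and less of each mRNA per cell cannot be told apart.

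The count of calls depended on the pairing of arrays across the groups. With the replicate number of the series matrix as a block, 43 of 48 genes were called lower and 0 higher, beside 15.3% and 14.8% of all probes, and all 28 genes called without the block were among them. The block also called 15 of the 20 genes that were not called without it. Its pairs were chosen because their arrays varied together in these same values, and calls over all probes rose with it from 1039 to 5644. With the replicate number of the sample labels as a block, 10 of 48 genes were called lower and 0 higher. Of all 18761 probes, that block called 126 lower and 30 higher. Leaving out control array 1 left 17 of the 28 calls, with a median of -0.71, and 358 of 18958 probes called lower.

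**Figure D1:**
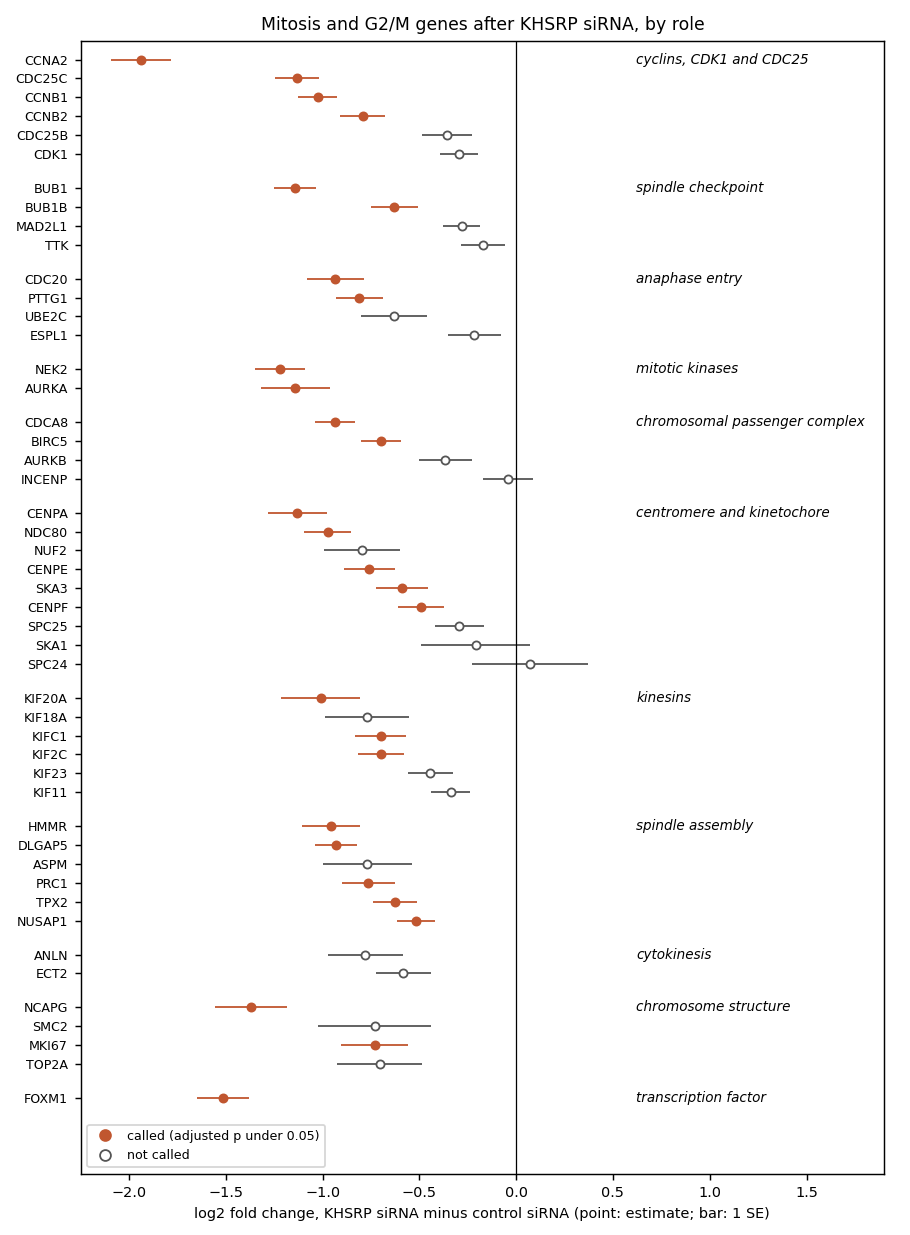
Log2 fold change of each of the 48 tested mitosis and G2/M genes, KHSRP siRNA minus control siRNA (x axis; point, estimate; bar, 1 SE), grouped by role; filled points are the 28 called genes. All called genes lie left of 0, from CCNA2 at -1.94 to CENPF at -0.49.

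Promoters of 4 called members are shown as examples of where the CHR core lies, and they were chosen for holding a match to it. The RefSeq table (GRCh38.p14) held 55 promoters for 44 of the 50 genes. It had no entry for TPX2, AURKA, FOXM1, UBE2C, BIRC5 and TTK. The sequences below are the 4 called genes of largest change with a match to TTTGAA on either strand: NCAPG, a condensin subunit, CDC25C, the phosphatase that activates CDK1 at mitotic entry, CENPA, the histone H3 variant of centromeres, and NDC80, the microtubule-binding subunit of the outer kinetochore. Each runs from 120 bases before to 3 bases after the start, 5′ to 3′ on the strand of the gene, with matches to TTTGAA (or TTCAAA, its reverse complement) and to CCAAT (or ATTGG) in capitals.
NCAPG (chr4:17810859-17810981, plus strand): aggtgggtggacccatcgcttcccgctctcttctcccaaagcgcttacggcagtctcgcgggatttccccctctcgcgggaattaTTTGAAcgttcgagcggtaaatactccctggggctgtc
CDC25C (chr5:138331802-138331924, minus strand): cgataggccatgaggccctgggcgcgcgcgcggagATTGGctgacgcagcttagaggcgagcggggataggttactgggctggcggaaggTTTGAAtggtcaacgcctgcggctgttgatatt
CENPA (chr2:26785936-26786058, plus strand): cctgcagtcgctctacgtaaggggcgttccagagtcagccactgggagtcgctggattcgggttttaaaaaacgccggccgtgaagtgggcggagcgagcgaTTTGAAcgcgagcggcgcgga
NDC80 (chr18:2571437-2571559, plus strand): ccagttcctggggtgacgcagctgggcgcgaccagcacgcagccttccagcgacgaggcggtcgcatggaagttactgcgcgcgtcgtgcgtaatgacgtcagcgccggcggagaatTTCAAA
The CHR core began 35 bases before the start in NCAPG, 30 before in CDC25C and 18 before in CENPA, and in NDC80 its reverse complement began 3 bases before the start and ran across it. CDC25C has 4 promoters in the table, and the one shown is that with the match nearest before its start. Within the stretches shown, CDC25C alone held the CCAAT box, in reverse, 85 bases before the start.

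Matches of this kind were common among the member promoters. TTTGAA on either strand was found in 35 of 55 member promoters (63.6%), beside 15.2% of all 35116 promoters of the same 300 bases in the table and 10.2% of the 14145 promoters of tested genes. CCAAT on either strand was found in 39 of 55 (70.9%), beside 34.6% of all promoters, and both motifs in 26 of 55 (47.3%), beside 5.90% of all promoters. Matches were counted wherever the letters stood, overlaps with other motifs included, and neighbouring promoters of one gene share sequence. Of 47 TTTGAA matches in the members, 26 (55.3%) began in the 100 bases before the start, beside 29.0% of 6238 matches in all promoters. Counted by gene, 32 of 44 members held TTTGAA and 34 of 44 held CCAAT. The CHR core was held by 16 of 24 called members and by 15 of 18 tested members without a call. The member with the largest change, CCNA2, had no match to the CHR core, and neither did NEK2, BUB1, CCNB1 or KIF20A. Only the exact letters TTTGAA or TTCAAA were searched, so a promoter without a match was not shown to lack a CHR. A match is a stretch of letters and was not measured as a bound site.

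**Figure D2:**
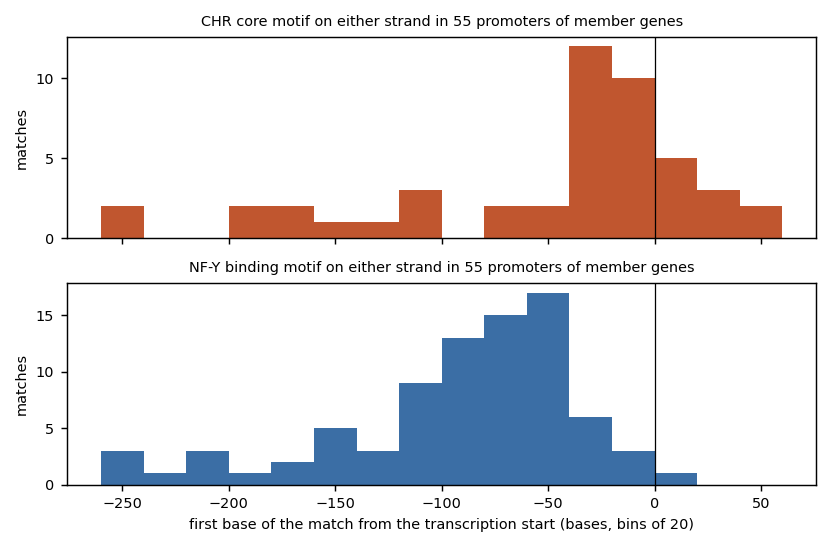
Number of matches (y axis) to the CHR core motif (top) and the NF-Y binding motif (bottom) by distance of the first base from the transcription start (x axis, bins of 20 bases) in 55 RefSeq promoters of member genes. The bars of the CHR core are highest in the 40 bases before the start, and those of the NF-Y motif lie further before it.

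Among the cyclins and the CDK1 module, cyclin A2, both B-type cyclins and CDC25C were called lower, whereas CDK1 and CDC25B were not called. CCNA2 encodes the cyclin that drives S phase and entry into mitosis. Its level was 2.57, 2.49, 2.73 and 2.35 on the 4 control arrays and 0.39, 0.75, 0.88 and 0.37 on the 4 KHSRP siRNA arrays. The groups were 1.47 apart at their nearest arrays, and the fall was 3.84-fold (log2 fold change -1.94 ± 0.16 SE, adjusted p = 0.000668). CCNB1, the B-type cyclin that forms the mitosis-promoting kinase with CDK1, had levels of 4.72, 4.86, 4.70 and 4.67 in control cells and of 3.68, 3.78, 3.78 and 3.61 after KHSRP siRNA. No KHSRP siRNA array came near a control array, and the spread within each group was 0.08 (SD, n = 4). CCNB1 fell by 1.03 on the log2 scale (SE 0.10, adjusted p = 0.00151), and a second CCNB1 probe gave -1.06 (adjusted p = 0.00516). CDC25C, whose promoter is shown above, had levels of -0.17, -0.10, -0.37 and -0.14 in control cells and of -1.38, -1.33, -1.16 and -1.44 after KHSRP siRNA. All 4 KHSRP siRNA arrays were below all 4 controls, and CDC25C fell by 1.13 on the log2 scale (SE 0.11, adjusted p = 0.00161). CCNB2, the second B-type cyclin, was 1.73-fold lower (adjusted p = 0.00738).

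CDK1, the catalytic partner of these cyclins, was not called. Its level was 3.47, 3.45, 3.34 and 3.41 in control cells and 3.21, 3.03, 3.13 and 3.12 after KHSRP siRNA. The groups did not overlap, but the log2 fold change of -0.30 ± 0.10 (SE) did not pass the test (adjusted p = 0.130; 0.0230 with the matrix-numbered block). CDC25B, a phosphatase that acts at the centrosome before CDC25C, had a log2 fold change of -0.36 (adjusted p = 0.167; 0.0223 with that block). The differences between CCNA2, CCNB1 and CDK1 in the size of the change were not tested.

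The transcription factor FOXM1, an activator of G2/M genes, was called lower. Its level was 2.90, 3.06, 2.79 and 2.77 in control cells and 1.38, 1.39, 1.59 and 1.1 after KHSRP siRNA, with all controls above all KHSRP siRNA arrays. The fall was 2.86-fold (log2 fold change -1.52 ± 0.14 SE, adjusted p = 0.00102). Of the 48 genes, only CCNA2 had a larger change.

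**Figure D3:**
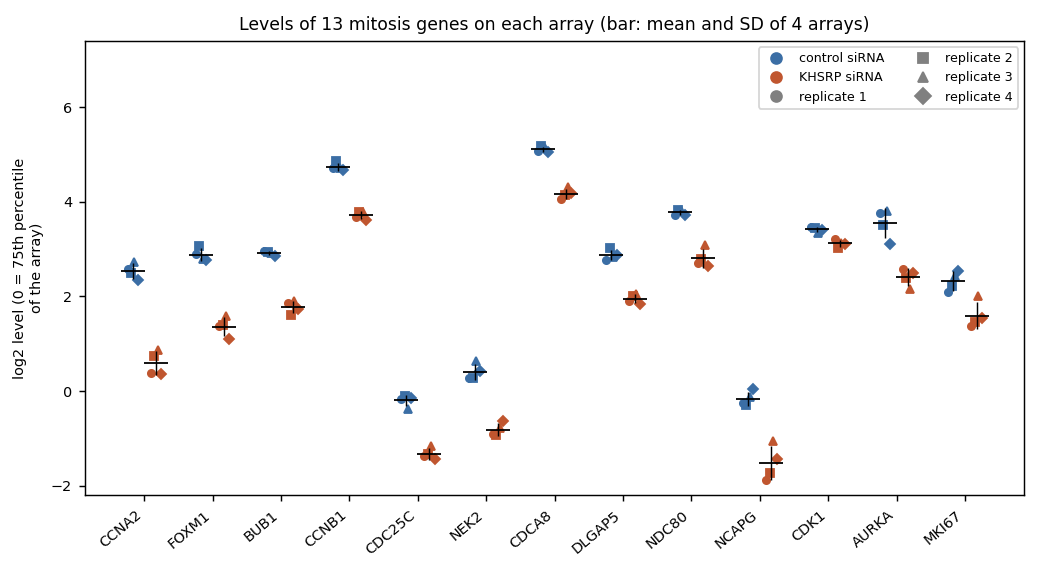
Log2 level on each array (y axis; 0 is the 75th percentile of the array) of the 10 members with the smallest p and of CDK1, AURKA and MKI67, for control siRNA (blue) and KHSRP siRNA (orange); symbols mark replicates 1 to 4, and bars give the mean and SD of 4 arrays. In each of the 13 genes the 4 KHSRP siRNA arrays lie below the 4 control arrays, with the narrowest gaps in CDK1 and MKI67.

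In the spindle checkpoint and at anaphase entry, 4 of 8 genes were called lower, beside 3.62% of all probes. BUB1, the checkpoint kinase of unattached kinetochores, had levels of 2.96, 2.95, 2.92 and 2.86 in control cells and of 1.86, 1.62, 1.91 and 1.73 after KHSRP siRNA. The control arrays hardly differed (SD 0.045, n = 4), all KHSRP siRNA arrays lay below them, and BUB1 was 2.21-fold lower (log2 fold change -1.14 ± 0.11 SE, adjusted p = 0.0011). BUB1B, which encodes the checkpoint protein BUBR1, was 1.55-fold lower (adjusted p = 0.0213). MAD2L1, which encodes the MAD2 protein that captures CDC20, had a log2 fold change of -0.28 (adjusted p = 0.135, or 0.0228 with the matrix-numbered block). TTK, the kinase that starts the checkpoint, had one of -0.17 (adjusted p = 0.476, or 0.0903 with that block). CDC20, the activator of the anaphase-promoting complex, was 1.91-fold lower (log2 fold change -0.93 ± 0.15 SE, adjusted p = 0.00978). PTTG1, which encodes securin, the inhibitor of separase, was 1.75-fold lower (adjusted p = 0.00796). ESPL1, which encodes separase itself, had a log2 fold change of -0.22 and was not called (adjusted p = 0.452), and UBE2C, the ubiquitin-conjugating enzyme of the complex, had one of -0.63 (adjusted p = 0.0729; 0.00632 with the matrix-numbered block).

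Both mitotic kinases with a probe were called lower, beside 3.62% of all probes. NEK2, a centrosome kinase, had levels of 0.27, 0.29, 0.65 and 0.42 in control cells and of -0.91, -0.94, -0.77 and -0.64 after KHSRP siRNA. Every control array stood above 0 and every KHSRP siRNA array below it, a 2.33-fold fall (log2 fold change -1.22 ± 0.13 SE, adjusted p = 0.0020), and its second probe gave -1.29 (adjusted p = 0.00308). AURKA, which encodes the Aurora A kinase of centrosomes and spindle poles, had levels of 3.77, 3.51, 3.80 and 3.12 in control cells and of 2.59, 2.38, 2.16 and 2.50 after KHSRP siRNA. Its arrays spread more within groups than those of NEK2, control array 4 being low, yet the groups stayed apart and the fall was 2.21-fold (log2 fold change -1.14 ± 0.18 SE, adjusted p = 0.00958).

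Of the chromosomal passenger complex, which places Aurora B at centromeres and the midzone, all 4 members were lower in value, beside 48.2% of all probes. Of the 4, 2 were called lower, or 3 with the matrix-numbered block, beside 3.62% and 15.3% of all probes. CDCA8, which encodes the subunit borealin, had levels of 5.08, 5.17, 5.13 and 5.05 in control cells and of 4.06, 4.15, 4.31 and 4.18 after KHSRP siRNA. The groups were well apart, and CDCA8 fell by 0.94 on the log2 scale (SE 0.10, adjusted p = 0.00230). BIRC5, which encodes survivin, was 1.62-fold lower (adjusted p = 0.00796). The kinase AURKB had a log2 fold change of -0.37 (adjusted p = 0.178; 0.0288 with the matrix-numbered block), and the scaffold INCENP one of -0.04 (adjusted p = 0.920). INCENP overlapped between the groups, from 1.96 to 2.34 in control cells and from 2.0 to 2.25 after KHSRP siRNA.

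At centromeres and kinetochores, 5 of 9 genes were called lower, beside 3.62% of all probes. NDC80 had levels of 3.73, 3.82, 3.83 and 3.72 in control cells and of 2.71, 2.78, 3.08 and 2.64 after KHSRP siRNA, array 3 being the highest of the latter. It was 1.96-fold lower (log2 fold change -0.97 ± 0.12 SE, adjusted p = 0.00415). Its partners in the NDC80 complex were not called, and their differences from NDC80 were not tested: NUF2 had a log2 fold change of -0.80 (adjusted p = 0.0541; 0.00988 with the matrix-numbered block), SPC25 one of -0.29 (adjusted p = 0.247; 0.0393 with that block) and SPC24 one of 0.07 (adjusted p = 0.944). SPC24 varied from -3.10 to -1.91 within the control group. CENPA was 2.19-fold lower (log2 fold change -1.13 ± 0.15 SE, adjusted p = 0.00549), and the kinetochore motor CENPE 1.69-fold lower (adjusted p = 0.0146). CENPF, a G2-phase kinetochore protein, was 1.41-fold lower with an adjusted p of 0.0497, and its second probe gave a log2 fold change of -0.52 that was not called (adjusted p = 0.111). In the SKA complex, which couples kinetochores to microtubules, SKA3 fell by 0.59 on the log2 scale (adjusted p = 0.0427) and SKA1 had a log2 fold change of -0.21 (adjusted p = 0.783). The calls of CENPF and SKA3 were near the threshold: without control array 1, for example, their adjusted p rose to 0.112 and 0.123.

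Of the 6 kinesins, the motors that shape the spindle and the midzone, 3 were called lower, beside 3.62% of all probes. KIF20A, which works at the midzone in cytokinesis, was 2.01-fold lower (log2 fold change -1.01 ± 0.20 SE, adjusted p = 0.0260). The minus-end motor KIFC1 was 1.62-fold lower (adjusted p = 0.0198), as was KIF2C, a microtubule depolymerase of centromeres, at 1.62-fold (adjusted p = 0.0138). KIF18A, which dampens chromosome oscillation, had a log2 fold change of -0.77 (adjusted p = 0.0818; 0.00846 with the matrix-numbered block). KIF23, the midzone kinesin of the centralspindlin complex, had one of -0.44 (adjusted p = 0.0670; 0.00637 with that block) and a second probe at -0.50 (adjusted p = 0.0699). KIF11, which pushes spindle poles apart, had one of -0.34 (adjusted p = 0.0947; 0.0265 with that block). Without control array 2 the adjusted p was 0.0829 for KIF20A, 0.0681 for KIFC1 and 0.0510 for KIF2C.

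Of the 6 spindle assembly genes, 5 were called lower, beside 3.62% of all probes. DLGAP5, a microtubule stabilizer, had levels of 2.77, 3.03, 2.83 and 2.88 in control cells and of 1.91, 2.0, 2.05 and 1.84 after KHSRP siRNA. The groups lay far apart relative to the spread within them, and the fall was 1.91-fold (log2 fold change -0.93 ± 0.11 SE, adjusted p = 0.00305). HMMR, a spindle pole and hyaluronan-binding protein, was 1.94-fold lower (adjusted p = 0.00973), and PRC1, which bundles midzone microtubules, 1.70-fold lower (adjusted p = 0.0157). TPX2, the activator of Aurora A, was 1.54-fold lower (adjusted p = 0.0165) and NUSAP1, a spindle bundling protein, 1.43-fold lower (adjusted p = 0.0209). NUSAP1 was called in 2 of 8 settings with 1 array left out, with an adjusted p of 0.0708 without control array 1. ASPM, a spindle pole protein, had log2 fold changes of -0.77 (adjusted p = 0.101) and -0.98 (adjusted p = 0.126) on its probes. Neither cytokinesis gene was called without a block. The log2 fold change was -0.78 for ANLN, a cleavage furrow scaffold (adjusted p = 0.0572, or 0.00275 with the matrix-numbered block). For ECT2, which activates RhoA at the furrow, it was -0.58 (adjusted p = 0.0507, or 0.00324 with that block).

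Among the genes of chromosome structure, NCAPG and MKI67 were called lower. NCAPG had levels of -0.25, -0.29, -0.13 and 0.04 in control cells and of -1.87, -1.73, -1.06 and -1.43 after KHSRP siRNA. KHSRP siRNA array 3 was the nearest to the controls and still below all of them, and the fall was 2.58-fold (log2 fold change -1.37 ± 0.19 SE, adjusted p = 0.00549). MKI67, which encodes the Ki-67 protein that coats mitotic chromosomes, had levels of 2.09, 2.21, 2.44 and 2.54 in control cells and of 1.37, 1.45, 2.01 and 1.54 after KHSRP siRNA. Array 3 of the KHSRP siRNA group came close to control array 1, and MKI67 fell by 0.73 on the log2 scale (SE 0.17, adjusted p = 0.0475). Its other probes gave -0.86 (adjusted p = 0.0303) and -0.38 (adjusted p = 0.110), and without control array 1 the adjusted p of the first probe was 0.0784. TOP2A, the topoisomerase that untangles sister chromatids, had a log2 fold change of -0.71 and was not called (adjusted p = 0.113). The probes of condensin subunit SMC2 disagreed, at -0.73 (adjusted p = 0.206) and -0.09 (adjusted p = 0.933). With the matrix-numbered block their adjusted p was 0.00709 and 0.479.

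Within groups, some members followed the split seen in the squamous markers. The pooled SD of the 48 genes ranged from 0.05 to 0.48, with a median of 0.16, beside 0.26 over all tested probes, whose median level was lower (0.43, against 2.38 for the members). Relative to the control mean, the median over the 48 genes was 0.03, 0.04, 0.08 and -0.08 on the control arrays and -0.70, -0.75, -0.67 and -0.67 on the KHSRP siRNA arrays. In these medians all 4 KHSRP siRNA arrays lay below all 4 control arrays. The calls of single genes did depend on single arrays, and leaving out control array 1 left 17 of the 28. UBE2C, AURKA, AURKB, INCENP, CENPE, SPC24, SKA1, ASPM, ECT2, ANLN, TOP2A and SMC2, 12 of 48, were higher on control arrays 1 and 3 and KHSRP siRNA arrays 1 and 4 than on the other arrays of their group, as were 17.3% of all tested probes and all 8 squamous markers. CDC25C, KIF20A, KIF18A and DLGAP5 were lower on those arrays, as were 24.6% of all tested probes. The part of the squamous markers in these differences was not tested.

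TOP2A is an example of this spread. Its level was 2.11, 1.81, 2.17 and 1.41 in control cells and 1.34, 0.97, 0.82 and 1.54 after KHSRP siRNA, so that the highest KHSRP siRNA array lay above the lowest control. In the pairs of the series matrix, the differences were -0.77, -0.84, -0.63 and -0.58, and with the matrix-numbered block the adjusted p was 0.00306. ASPM likewise overlapped between groups but was lower in each pair, at -0.75, -0.89, -0.88 and -0.56 (adjusted p = 0.00321 with that block). SKA1 varied over 1.05 within the control group, and its differences in the pairs were -0.52, -0.08, -0.15 and -0.09. It was not called with the block either (adjusted p = 0.154). In all, 46 of 48 genes were lower in all 4 pairs, the exceptions being INCENP and SPC24. No share over all probes was taken for that count, and the pairs were chosen from these same values. With the block, 5 genes were not called: SKA1, INCENP, SPC24, TTK (adjusted p = 0.0903) and ESPL1 (adjusted p = 0.0613).

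**Figure D4:**
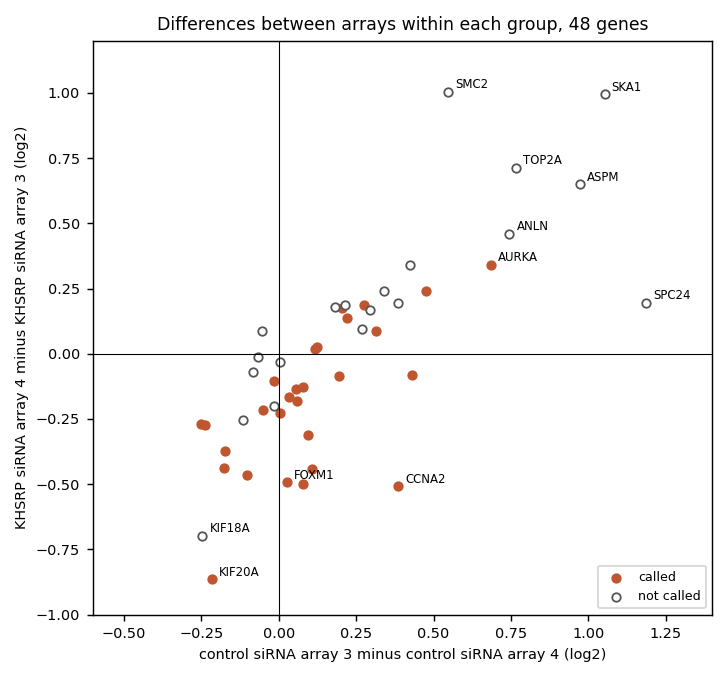
Difference between control siRNA arrays 3 and 4 (x axis, log2) and between KHSRP siRNA arrays 4 and 3 (y axis, log2), 1 point for each of 48 members, filled where the gene was called between the groups. SKA1, TOP2A, ASPM and SMC2 lie far to the upper right and were not called; KIF20A and KIF18A lie to the lower left.

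Genes of the wider mitotic programme were also called lower more often than higher. Of 133 tested companion genes of mitosis outside the 48, 32 were called lower and 1 higher, with a median log2 fold change of -0.26. Of all probes, 3.62% were called lower and 1.92% higher. With the matrix-numbered block 65 of the 133 were called lower and 7 higher, beside 15.3% and 14.8% of all probes. The other mitotic kinesins and spindle genes had the most calls, 16 of 29 lower and 0 higher (median -0.65), among them PLK4, the kinase of centriole duplication (log2 fold change -1.31, with a probe well above background on all 4 control arrays but only 2 of 4 KHSRP siRNA arrays), RACGAP1, the partner of KIF23 in centralspindlin (-1.05), and CDCA3 (-1.05). Of 33 other kinetochore and checkpoint genes, 5 were called lower and 0 higher (median -0.33), with SKA2 of the SKA complex at -0.84, the CENPA chaperone HJURP at -0.82 and SGO2, a protector of centromeric cohesion, at -0.75. Of 17 further cohesin and condensin genes, 5 were called lower and 0 higher (median -0.20), with the cohesin subunits SMC1A at -1.41 and RAD21 at -0.84 and CDCA5, which encodes sororin, at -0.93.

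Subunits and regulators that act on these genes or proteins are given beside 3.62% of all probes called lower and 1.92% called higher, or 15.3% and 14.8% with the matrix-numbered block. Of 18 subunits and regulators of the anaphase-promoting complex, 1 was called lower, ANAPC13 (log2 fold change -0.91), and 1 higher, the ubiquitin-conjugating enzyme UBE2D1 (0.69), with a median of -0.09, and 7 were called lower and 1 higher with the block. Of 22 G2/M regulators, 3 were called lower and 0 higher (median -0.10): the phosphatase CDKN3 at -0.95, BORA, a cofactor of Aurora A, at -0.73, and the CDK subunit CKS2 at -0.55. With the block 7 of the 22 were called lower and 2 higher. Of 14 genes of the DREAM and MuvB complexes and their partners, 2 were called lower and 0 higher (median -0.05), and 2 lower and 3 higher with the block. The calls without it were MYBL1, which encodes the transcription factor A-MYB (log2 fold change -1.61, adjusted p = 0.00102), and LIN54, the MuvB subunit that binds the CHR (-1.47, adjusted p = 0.00683). MYBL2, another MYB gene of this list, was tested and was not called without the block. For comparison, 34 DNA replication genes had a median of -0.34. Of them 32 were lower in value and 3 were called lower and 0 higher, or 22 lower and 1 higher with the matrix-numbered block, beside the shares of all probes given above (3.62% and 1.92%, and 15.3% and 14.8% with the block). The 3 calls were cyclin E1 gene CCNE1 at -1.19 and the ribonucleotide reductase genes RRM1 at -0.75 and RRM2 at -0.74.

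**Figure D5:**
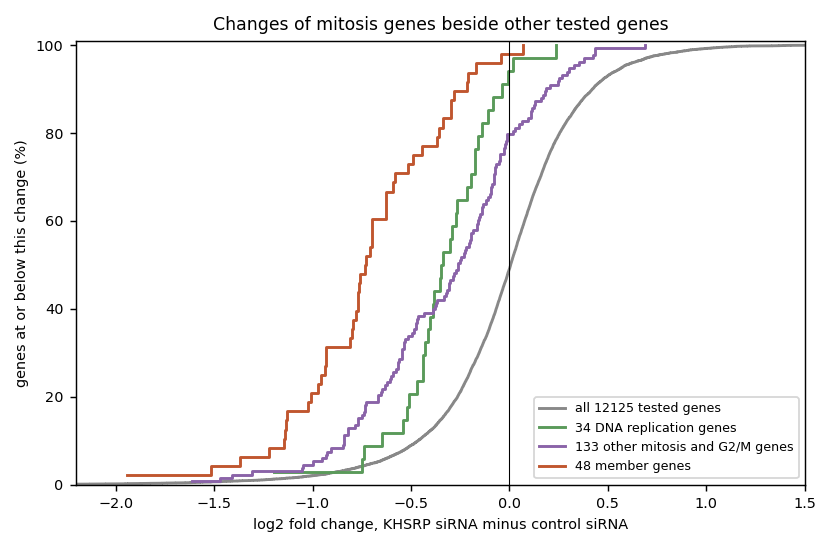
Cumulative share of genes (y axis, %) at or below each log2 fold change (x axis, KHSRP siRNA minus control siRNA) for the 48 members, 133 other mitosis and G2/M genes, 34 DNA replication genes and all 12125 tested genes. The curve of the members lies furthest to the left, with its median at -0.73.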

How the data were processed

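RNA from 8 samples of KYSE850 cells was hybridised to one-colour arrays, and samples were grouped by their labels. The authors scanned each array and extracted spots with Agilent Feature Extraction (11.5.1.1 in the file headers, 12.6 in the submitters' processing notes), so the deposited scanner values are background-subtracted fluorescence intensity on a linear scale, not scaled between arrays. The deposited series matrix holds log2 values that the authors made with GeneSpring, and it served as an alternative. Depth has no counterpart on arrays, and the number of arrays limits the precision.

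Control and outlier spots were left out, and the mean log2 signal of each probe was set against the 75th percentile of non-control probes on its array. A probe was tested when well above background in at least 0.5 of its spots on all 4 arrays of a group. Probes were named through RefSeq accessions (GRCh38.p14; 27241 of 42405 probes, 64.2%), and the probe with the highest mean level stood for a gene. Tests used limma 3.58.1 under R 4.3.3 (lmFit, eBayes, two-sided, no block), checked on simulated data, with Benjamini-Hochberg adjustment over 18761 probes. The simulated arrays were drawn independently of each other, so that check does not cover arrays that vary together. Other steps used Python 3.11.15.

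The member genes, the companion and marker lists and the tests were chosen with earlier results of these data known. Levels on each array are given for the 10 called members with the smallest p and for CCNB1, CDK1, PLK1 (no probe), AURKA, MKI67 and FOXM1, and 3 called genes at most of largest change are named per companion list. TOP2A, ASPM, SKA1, INCENP, SPC24 and KRT5 were given in more detail after their values were seen. Motifs were searched in RefSeq promoters of 250 bases before to 50 after each start, and promoters printed for the 4 called members of largest change with a TTTGAA match. Deviations from group means over all tested probes correlated at 0.52, 0.43, -0.67 and -0.64 for label numbers 1 to 4. As numbered in the series matrix they correlated at 0.52, 0.43, 0.83 and 0.84, so those numbers were used as pairs. The pairs were thus chosen from the same values that were then tested, and the labels do not say which numbering is right. A block that follows such correlations leaves less residual spread, so its calls are given only as an alternative. Alternatives changed the scaling, background correction (normexp with an offset of 50, on median spot brightness), the source of values, the filter, the block, array weights, the variance model, the test, the probe per gene, the promoter window and the arrays included.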

Additional observations from a re-analysis of the deposited data

Results flagged for a closer look

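In 98 groups of 4 arrays (the 48 tested members and KHSRP, each in both groups), 3 held an array that stood apart from the rest of its group by more than the 95% critical value of Dixon's ratio, and chance flags about 1 in 20 groups. PTTG1, which encodes securin, stood at 6.27 on control array 2, above 6.01 on the next (ratio 0.859). PRC1, the midzone bundling protein, stood at 3.81 on KHSRP siRNA array 4, below 4.04 on the next (ratio 0.858). NUSAP1 stood at 3.50 on control array 3, above 3.39 on the next (ratio 0.904).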

How the results depend on the processing

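The median of the members was -0.80 with median scaling, -0.63 with normexp correction and -0.67 within slide 2, and from -0.75 to -0.68 with 1 array left out. Against 28 members called lower, there were 12 without the filter on dim probes. There were 43 with the series matrix values and the replicate block, and 43 with the scanner values and the replicate block numbered as in the matrix. There were 10 with the block of label numbers, in which not all same-numbered arrays varied together. Over all probes, against 679 of 18761 called lower, there were 233 of 42403 without the filter, 2869 and 2863 with the matrix blocks, and 126 with the label block. Leaving out 1 array gave 17 to 25 members, with 17 without control array 1 and 19 without control array 2. Over all probes it gave 358 to 533 called lower, with 358 without control array 1 and 376 without control array 2. Against 32 companion genes called lower, there were 13 without the filter, 65 and 65 with the matrix blocks, 4 with the label block, and 20 to 30 with 1 array left out (20 without control array 1). Against 1 called higher, there were 0 with median scaling, without the filter and with the label block, 7 and 7 with the matrix blocks, and 1 whichever array was left out. In the 250 bases before the start alone, 45.5% of member promoters held TTTGAA, the matches after the start being left out. SPC24, at 0.07, ranged from -0.11 to 0.29 with 1 array left out and changed sign with median scaling (-0.0029), within slide 2 (-0.079) and without control array 2 (-0.11), control array 4 (-0.11) or KHSRP siRNA array 1 (-0.04), and INCENP, from -0.11 to 0.02 with 1 array left out, without control array 1 (0.0040) or 3 (0.019). Where no cause is named, the cause was not tested.

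No scaling moved the median of all probes by more than 0.1, although median scaling called 472 probes lower and 98 higher over the whole array, against 679 and 360. The methods' t-test called 30 members and 702 of 18761 probes lower after Benjamini-Hochberg adjustment. It called 42 members lower without adjustment, for which no share over all probes was taken. Of the 28 called members, 28 were called with the slide as a block, 17 whichever array was left out and 10 in each of 22 tested alternatives, and 28 were lower in value in each. Calls lost without control array 1 were BUB1B, CENPE, CENPF, SKA3, KIF20A, KIF2C, KIFC1, TPX2, PRC1, NUSAP1 and MKI67 (adjusted p from 0.0566 for KIF2C to 0.123 for SKA3). Other arrays lost some of the same calls: 9 without control array 2, 6 without control array 4 or KHSRP siRNA array 2, 5 without KHSRP siRNA array 4, 4 without control array 3 or KHSRP siRNA array 1, and 3 without KHSRP siRNA array 3. Of the 8 settings with 1 array left out, CENPF was called in 0, and MKI67 and SKA3 in only 1 each.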
